A study of Homo sapiens with 18 samples.

Results

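The plasma proteins that hepatocytes secrete were followed through their mRNAs: 44 genes given as a list of symbols, out of 23106 genes counted in each sample. All 44 were found in the count tables and were grouped by the role of their product, as 8 carriers of hormones, vitamins and other ligands, 12 apolipoproteins and lipoprotein assembly proteins, 11 protease inhibitors and related matrix-stabilising proteins, 8 acute phase proteins and haem or haemoglobin scavengers, and 5 other secreted or liver membrane proteins. PolyA RNA had been sequenced from 3 established human cell lines, each in normoxia and in hypoxia with 3 replicates per condition, so that 18 samples fell into 6 groups. HepG2 is a hepatocellular carcinoma line, HKC-8 a renal proximal tubule line, and RCC4 a renal carcinoma line that here carried a stably transfected wild-type VHL gene in normoxic and hypoxic samples alike. Hypoxic HepG2 and HKC-8 cells were labelled with 0.5% oxygen for 16 h, although their titles read 0.1 for HKC-8, and hypoxic RCC4 cells were labelled with 1.0% for 24 h, whereas the study describes a single exposure for the RNA-seq of all lines. Liver was thus represented by 1 line and kidney by 2, and a difference between lines cannot be told apart from a difference between tissues. The labels number the replicates without saying that they were separate cultures, so the p-values measure the spread between these samples, which may be technical.

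Total counts per sample ranged from 40915980 to 48355303 for HepG2 cells, from 42045335 to 51794355 for RCC4 cells and from 75441764 to 97984260 for HKC-8 cells. A count of 3 in a sample, used as the limit of detection, equalled 0.0306 to 0.0733 counts per 1000000 (CPM), and such limits cover counting error only. The 10 hypoxia-induced control genes, were all higher in hypoxic HepG2 cells, with log2 fold changes from 0.90 (SLC2A1) to 8.45 (CA9). All 10 were also higher in hypoxic HKC-8 cells, as were the 8 of them that could be tested in RCC4 cells. Of 20 hepatocyte markers that are not among the 44 genes, 17 had at least 10 counts in every HepG2 sample, against 4 in HKC-8 and 5 to 6 in RCC4 cells. The hepatocyte regulator HNF4A had 9405 to 11025 counts per HepG2 sample and at most 5 in any kidney sample. PAX8, which marks renal epithelium, had 5133 to 14934 counts per kidney sample, and PAX2 had 1463 to 2325 in RCC4 but at most 4 in HKC-8. The tubular transporters SLC22A6 and SLC22A8 and the tubular protein UMOD were at 0 in HKC-8 and RCC4 samples. Of all 16 kidney tubule and renal carcinoma markers, 10 to 12 had at least 10 counts in every RCC4 sample of a condition and 5 to 6 in HKC-8, against 5 in HepG2. Their summed level in normoxia was 908 to 928 CPM of the total count in RCC4 and 159 to 186 CPM in HKC-8, against 307 to 317 CPM in HepG2. Of the 12 tested in normoxia, 4 were higher and 1 lower in HepG2 than in HKC-8 (42.6% and 40.5% of all genes tested). As a set these markers thus did not set HKC-8 apart from HepG2.

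Hepatocytes make most proteins of blood plasma other than immunoglobulins. Albumin keeps fluid in the circulation and carries fatty acids and drugs, and dedicated carriers bring retinol, thyroxine and steroids to tissues. Apolipoprotein B, loaded with lipid by the transfer protein MTTP, forms the core of very-low-density lipoprotein, and smaller apolipoproteins steer its lipolysis and uptake. Serpins and inter-alpha-trypsin inhibitor chains restrain proteases and bind the extracellular matrix. During inflammation, interleukin-6 acting through STAT3, together with interleukin-1 and C/EBP factors, raises acute phase proteins such as C-reactive protein, serum amyloid A, haptoglobin and orosomucoid, while albumin and transthyretin decline.

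Levels were first compared between genes, per length, in normoxic HepG2 cells. RPKM (counts per kilobase of the main transcript per 1000000 counts) placed 10 of the 44 genes among the 100 highest of 18425 genes with a known transcript length. APOA2, a structural protein of high-density lipoprotein, stood highest at 6097 ± 583 RPKM (SD, n = 3), followed by ALB at 4742 ± 411 and AFP, the fetal counterpart of albumin, at 2928 ± 230. AHSG at 1744 ± 63.6 RPKM and SERPINA1 at 1663 ± 99.9 RPKM came next and were not separated in every sample. Of the 43 neighbouring pairs in this order, 25 were not separated in every sample, so the order is firm only in outline. At the other end CRP and SAA1 had 0 counts in all 6 HepG2 samples, SAA2 had 1 count in 1 sample, and GC, HRG and FGF21 had at most 8 counts in any. The remaining 38 genes had at least 10 counts in every HepG2 sample. Together the 44 genes took 5.04 to 5.30% of all counts in normoxic and 5.46 to 5.86% in hypoxic HepG2 samples, but 0.00145 to 0.00226% in HKC-8 and 0.00316 to 0.00405% in RCC4 samples.

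**Figure D1:**
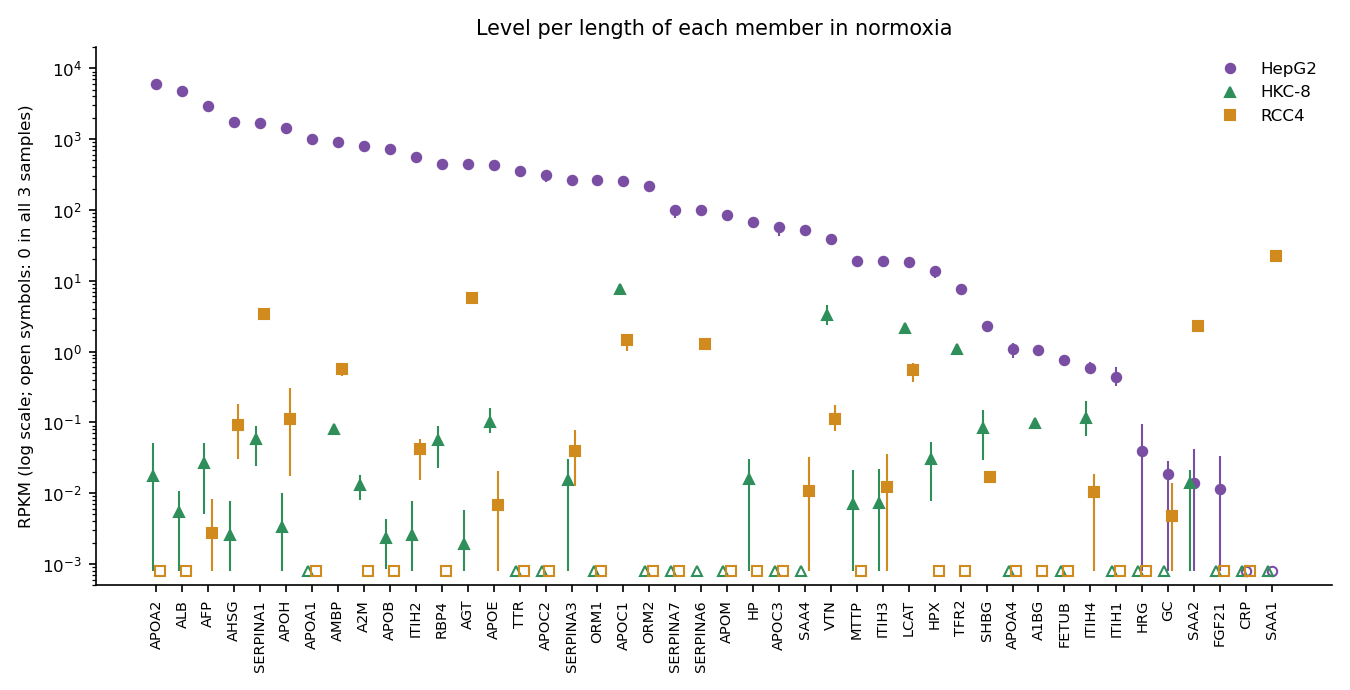
RPKM of the 44 genes in normoxic HepG2 (circles), HKC-8 (triangles) and RCC4 cells (squares) on a log axis, ordered by the HepG2 mean; symbols are means of 3 samples, bars run from the lowest to the highest sample, and open symbols at the foot mark genes with 0 counts in all 3. The HepG2 symbols lie above those of both kidney lines for the 38 genes counted well in HepG2, and RCC4 is highest for SAA1 and SAA2.

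The main comparison asked how these mRNAs stood in hypoxic against normoxic HepG2 cells. Of the 38 genes tested, 12 rose, 5 fell and 21 did not pass, against 39.1% of all 13623 tested genes that passed in either direction, 19.9% higher and 19.2% lower (edgeR quasi-likelihood test, Benjamini-Hochberg adjusted p under 0.05). The rises were led by the triglyceride-related apolipoproteins APOA4 and APOC3 and by the plasma glycoprotein AHSG, and the falls by the scavengers HP and HPX, while ALB and AFP did not pass. The median log2 fold change was 0.12 over the 38 genes and -0.0044 over all tested genes, and the median absolute log2 fold change was 0.21 in both cases. The 3 hypoxic samples lay wholly above the 3 normoxic ones for 14 genes and wholly below for 5, compared with 24.8% and 25.2% of all genes tested. In bulk samples fewer cells and less RNA per cell cannot be told apart. Neither TMM scaling without these genes nor median-of-ratios scaling changed the counts of 12 and 5.

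**Figure D2:**
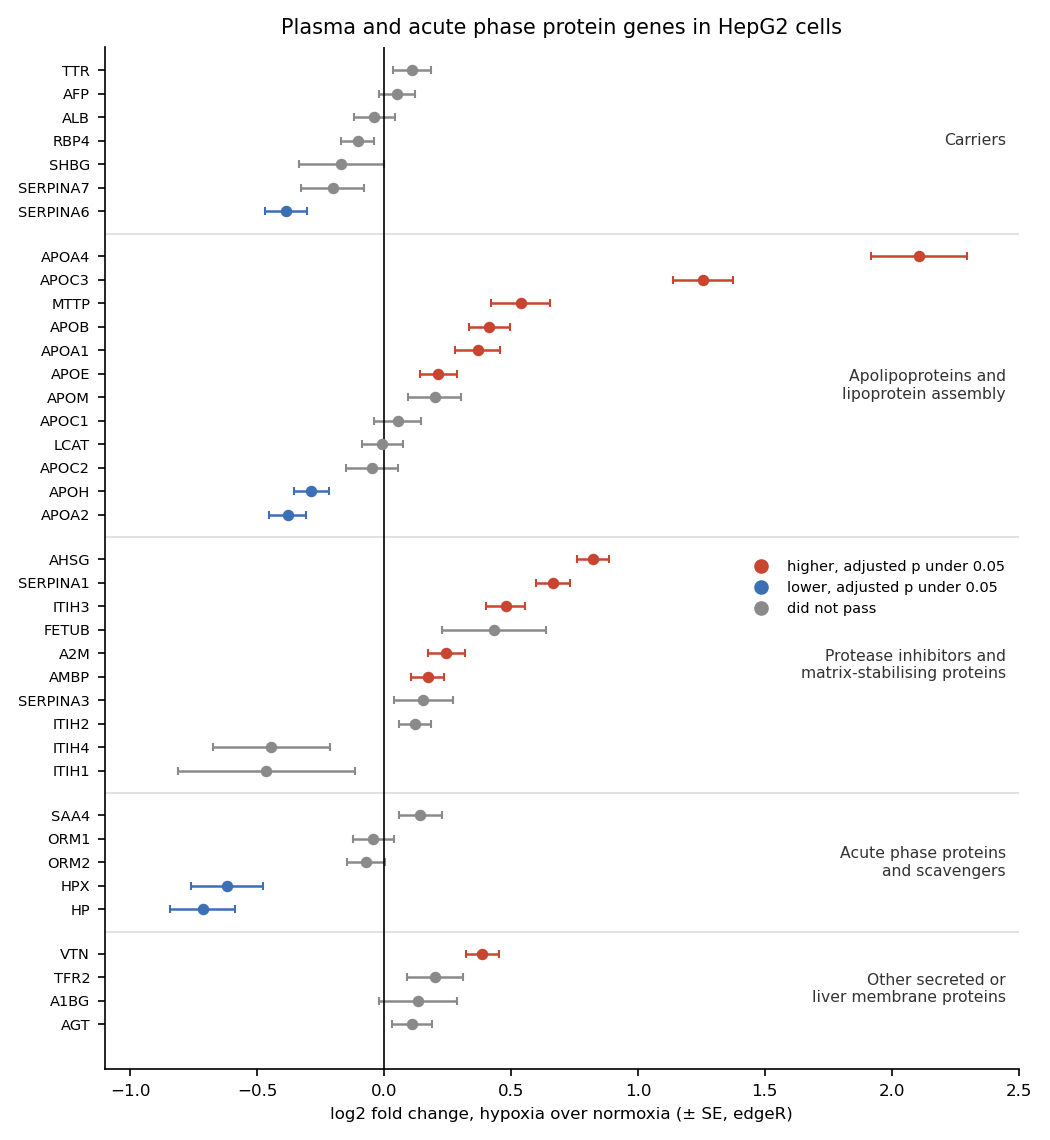
Log2 fold change (hypoxia over normoxia, x axis) of the 38 tested genes in HepG2 cells, grouped by role, with bars for the standard error; red and blue points passed upwards and downwards and grey points did not pass. Apolipoproteins hold the highest values, APOA4 at 2.11 and APOC3 at 1.26, and HP at -0.71 and HPX at -0.62 are the lowest.

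Among the 12 apolipoproteins and lipoprotein assembly genes, 6 rose, 2 fell and 4 did not pass, against 19.9% higher and 19.2% lower among all genes tested. APOA4, an apolipoprotein of triglyceride-rich particles and high-density lipoprotein, was at 1.52, 1.91 and 1.14 CPM in the normoxic samples and at 5.85, 6.14 and 7.79 CPM in the hypoxic ones (CPM here and below are TMM-scaled within the line). The groups were far apart, although the gene was among the least abundant tested, with 49 to 308 counts per sample. Its log2 fold change was 2.11 ± 0.19 (SE, adjusted p = 1.70e-06, edgeR). APOC3, which slows the lipolysis and clearance of triglyceride-rich lipoproteins, was at 32.4, 33.1 and 22.4 CPM in normoxia and at 74.1, 71.7 and 64.4 CPM in hypoxia. Every hypoxic sample was thus well above every normoxic one, and the log2 fold change was 1.26 ± 0.12 (SE, adjusted p = 2.93e-06, edgeR).

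APOA4 and APOC3 lie side by side with APOA1, which encodes the main protein of high-density lipoprotein. In GRCh37, the build of the count tables, APOA4 spans chr11:116691416-116694020 on the minus strand, APOC3 chr11:116700422-116703788 on the plus strand and APOA1 chr11:116706467-116708338 on the minus strand. APOA1 also rose, by 0.37 ± 0.089 on the log2 scale (SE, adjusted p = 0.00500, edgeR), from 739 to 934 CPM in normoxic to 1066 to 1209 CPM in hypoxic samples. These 3 neighbouring genes therefore moved in 1 direction by quite different amounts. The window of 250 bases before the start of APOA4 is shown because this gene rose the most. It is taken from RefSeq (GRCh38.p14, chr11:116823305-116823554, minus strand, 5′ to 3′), with capitals marking the HIF core letters ACGTG or GCGTG on either strand:
APOA4: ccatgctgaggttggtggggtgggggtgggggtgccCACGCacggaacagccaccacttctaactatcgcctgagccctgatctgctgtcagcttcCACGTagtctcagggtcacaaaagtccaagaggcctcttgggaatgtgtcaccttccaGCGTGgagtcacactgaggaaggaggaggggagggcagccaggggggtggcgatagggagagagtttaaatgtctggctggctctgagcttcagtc
It held 3 such matches, starting 214, 154 and 96 bases before the start. A match is a description of the letters and no evidence of binding.

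Of the other genes in this group, APOB, MTTP and APOE also rose. APOB, at 8973 to 10782 CPM in normoxia and 12510 to 14151 CPM in hypoxia, rose by 0.42 ± 0.081 on the log2 scale (adjusted p = 0.00126, edgeR). MTTP, which lipidates apolipoprotein B, rose by 0.54 ± 0.12 (adjusted p = 0.00250, edgeR), from 62.1 to 82.5 CPM to 86.2 to 117 CPM. APOE, a ligand for lipoprotein receptors, rose by 0.21 ± 0.072 (adjusted p = 0.0316, edgeR), a call lost without normoxia replicate 3, hypoxia replicate 1 or hypoxia replicate 3.

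APOA2 went the other way from APOA1, its partner on high-density lipoprotein. It was at 2716, 3109 and 2573 CPM in normoxia and at 2152, 2120 and 2183 CPM in hypoxia, with the hypoxic samples tightly grouped below all normoxic ones. Its log2 fold change was -0.38 ± 0.073 (SE, adjusted p = 0.00120, edgeR). APOH, a phospholipid-binding glycoprotein, fell by 0.29 ± 0.069 on the log2 scale (adjusted p = 0.00521, edgeR). APOC1, APOC2 and APOM, which are small exchangeable apolipoproteins, and LCAT, which esterifies cholesterol on high-density lipoprotein, did not pass and had log2 fold changes from -0.048 to 0.20. APOM shares 11.0% of its exon bases with BAG6 on the opposite strand and LCAT 12.8% with SLC12A4 on the same strand, so reads in those stretches may not be attributed to them.

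Of the 11 protease inhibitors and matrix-stabilising proteins, 10 were tested, 5 rose and none fell (19.9% and 19.2% of all genes tested). AHSG (fetuin-A), which keeps calcium phosphate in solution, was at 2743, 2690 and 2542 CPM in normoxia and at 4862, 4686 and 4561 CPM in hypoxia. Replicates differed little beside the gap between the groups, and the log2 fold change was 0.82 ± 0.063 (SE, adjusted p = 3.61e-07, edgeR), which is 1.77-fold. Its neighbour and paralog FETUB, expressed at 1.26 to 1.32 CPM in normoxia, had a log2 fold change of 0.43 ± 0.21 that did not pass (adjusted p = 0.115, edgeR), and HRG, the next gene of this cystatin-like cluster, was barely counted. The 250 bases before the start of AHSG are shown as those of the gene with the next highest rise among those with an entry (RefSeq, GRCh38.p14, chr3:186612810-186613059, plus strand), with capitals for the HNF4 letters CAAAGT and the C/EBP letters TTNCNNAA on either strand:
AHSG: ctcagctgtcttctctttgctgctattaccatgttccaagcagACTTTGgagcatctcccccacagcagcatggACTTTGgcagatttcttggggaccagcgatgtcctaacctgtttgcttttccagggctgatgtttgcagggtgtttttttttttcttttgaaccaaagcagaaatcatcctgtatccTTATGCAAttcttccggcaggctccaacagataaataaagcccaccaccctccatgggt
It held 2 HNF4 matches and 1 C/EBP match, but no HIF core.

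SERPINA1 (alpha-1 antitrypsin), the main plasma inhibitor of neutrophil elastase, came next to AHSG in this group. It had 4555 to 5153 CPM in normoxic and 7517 to 7832 CPM in hypoxic samples, a log2 fold change of 0.66 ± 0.067 (adjusted p = 5.09e-06, edgeR). SERPINA3, the antichymotrypsin encoded in the same serpin cluster, had 0.15 ± 0.12 and did not pass. The third serpin of that cluster, SERPINA6, fell and is described with the carriers.

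Of the 5 genes of the inter-alpha-trypsin inhibitor family, ITIH3 and AMBP rose and the others did not pass. ITIH3, a heavy chain, rose by 0.48 ± 0.077 on the log2 scale (adjusted p = 0.000288, edgeR). AMBP, which encodes the light chain bikunin together with alpha-1-microglobulin, rose by 0.17 ± 0.064 with an adjusted p of 0.0484 (edgeR), a call that was lost when any sample other than normoxia replicate 2 was left out. The abundant chain ITIH2 had 0.12 ± 0.064 and did not pass, and the rarely counted ITIH1 and ITIH4 had -0.46 ± 0.35 and -0.44 ± 0.23 without passing. A2M, a broad protease trap, rose by 0.24 ± 0.073 (adjusted p = 0.0176, edgeR), and this call was lost without hypoxia replicate 1 or hypoxia replicate 2.

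**Figure D3:**
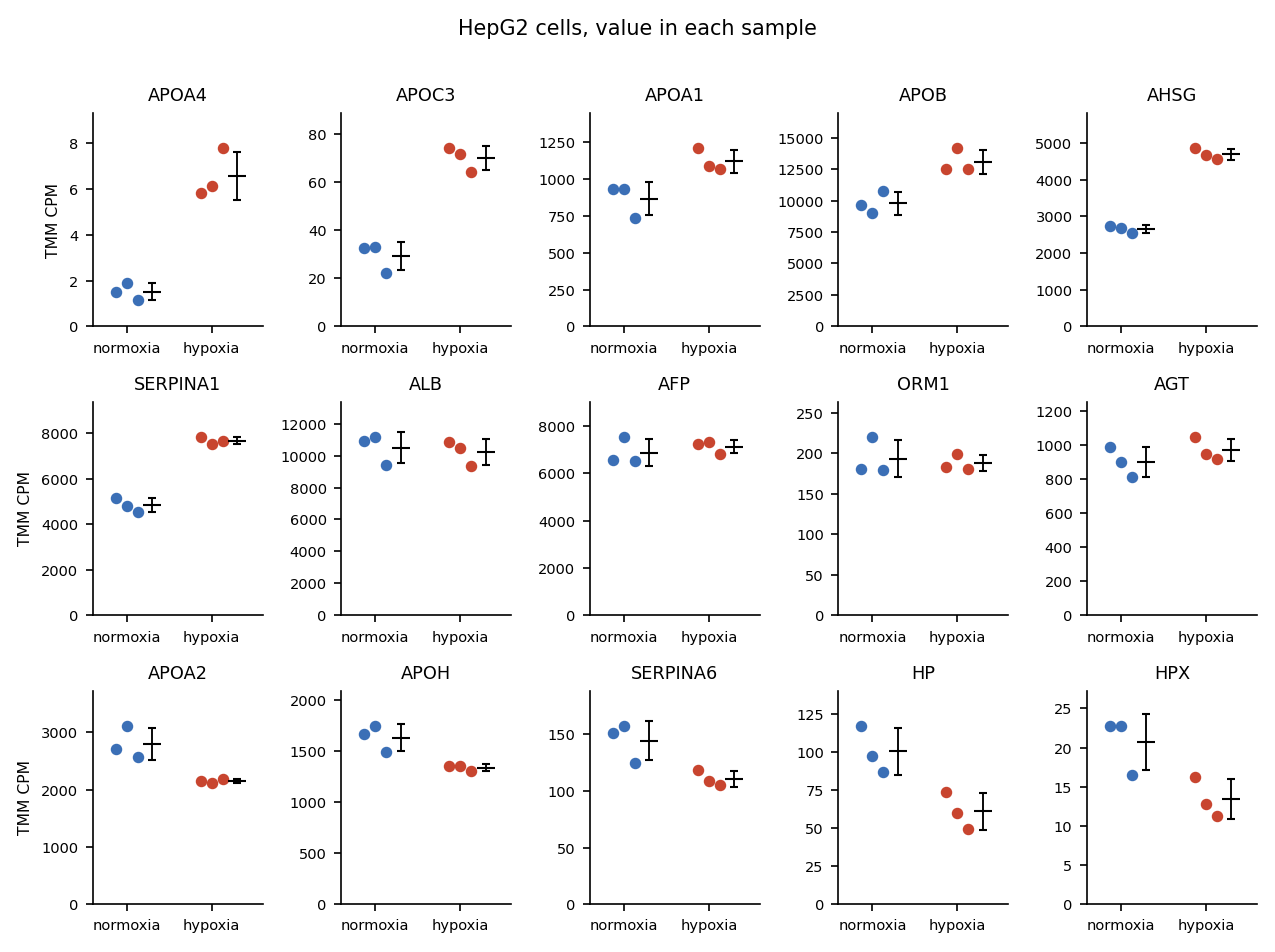
TMM-scaled CPM (y axes from 0) of 15 genes in each of the 3 normoxic (blue) and 3 hypoxic (red) HepG2 samples; the black marks give mean ± SD. APOA4, APOC3 and AHSG show wide gaps upwards, ALB, AFP, ORM1 and AGT overlap, and HP lies lower in every hypoxic sample, whereas HPX is separated by a narrow gap.

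Among the 7 carriers tested, 0 rose and 1 fell (19.9% and 19.2% of all genes tested). ALB was at 10931, 11146 and 9413 CPM in normoxia and at 10839, 10491 and 9331 CPM in hypoxia, so the groups overlapped almost entirely. Its log2 fold change was -0.039 ± 0.082 (adjusted p = 0.744, edgeR), and an interval of 2 SE either side ran from -0.20 to 0.12. AFP had 0.051 ± 0.072 and TTR, the carrier of thyroxine and of the retinol-binding protein, 0.11 ± 0.074, with neither passing. RBP4, which carries retinol, had -0.10 ± 0.065, SERPINA7 (thyroxine-binding globulin) -0.20 ± 0.12 and SHBG, which binds sex steroids, -0.17 ± 0.17. The one that passed was SERPINA6, the corticosteroid-binding globulin, which fell by 0.39 ± 0.082 on the log2 scale (adjusted p = 0.00247, edgeR), from 125 to 157 CPM to 105 to 118 CPM. GC, the carrier of vitamin D, had at most 6 counts in any HepG2 sample and was not tested.

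The window before SERPINA6 is shown beside that of HPX, since these had the lowest fold changes among the genes that passed and had an entry (RefSeq, GRCh38.p14, both minus strand, chr14:94323337-94323586 and chr11:6440988-6441237). Capitals mark matches to GTTAAT (HNF1), CAAAGT (HNF4), TTNCNNAA (C/EBP) and TTCNNNGAA (STAT) on either strand, and the HNF4 match in the first of them runs into an HNF1 match:
SERPINA6: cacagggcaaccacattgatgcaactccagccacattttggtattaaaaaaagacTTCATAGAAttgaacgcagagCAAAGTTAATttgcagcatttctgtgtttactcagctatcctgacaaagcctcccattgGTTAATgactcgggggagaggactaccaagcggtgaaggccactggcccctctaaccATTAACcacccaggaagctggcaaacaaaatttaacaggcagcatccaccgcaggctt
HPX: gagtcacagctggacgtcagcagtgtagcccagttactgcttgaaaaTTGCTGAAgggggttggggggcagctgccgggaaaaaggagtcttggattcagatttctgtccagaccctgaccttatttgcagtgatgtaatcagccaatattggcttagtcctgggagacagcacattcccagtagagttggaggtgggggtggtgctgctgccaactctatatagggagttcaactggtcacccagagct
The SERPINA6 window held 3 HNF1 matches, 1 HNF4 match and 1 STAT match, and the HPX window held 1 C/EBP match.

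In the acute phase group 5 of 8 genes were tested, none rose and 2 fell. These are 40% of the tested genes, near the 39.1% of all genes tested that passed. Each gene was placed in a single group, so this group need not hold every acute phase protein. AHSG, SERPINA1 and ITIH3, which rose, and SERPINA3, which did not pass, were counted with the inhibitors instead. Proteins of the acute phase may rise or, like albumin and transthyretin, decline in inflammation. Whether any of these rises was part of an acute phase response was not tested. HP (haptoglobin), which captures free haemoglobin, ranged from 86.8 to 117 CPM in normoxic and from 49.6 to 74.0 CPM in hypoxic samples, a log2 fold change of -0.71 ± 0.13 (adjusted p = 0.000664, edgeR). HPX (hemopexin), which captures free haem, ranged from 16.5 to 22.7 CPM and from 11.3 to 16.3 CPM, so the lowest normoxic sample was barely above the highest hypoxic one. Its log2 fold change was -0.62 ± 0.14 (adjusted p = 0.00380, edgeR). ORM1 (orosomucoid), the gene of this group with the highest level per length, was at 181, 220 and 179 CPM in normoxia and at 183, 199 and 181 CPM in hypoxia. The values overlapped, and the log2 fold change was -0.041 ± 0.079 (adjusted p = 0.716, edgeR). Its near copy ORM2 had -0.071 ± 0.074, and SAA4, the constitutive serum amyloid A, 0.14 ± 0.086, without passing. CRP, SAA1 and SAA2, the inducible acute phase reactants, were at 0 or 1 count. Because fragments without a unique position had been discarded, the counts of ORM1 and ORM2, of SAA1 and SAA2, and of HP with its paralog HPR are uncertain.

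Of the 5 other genes, AGT, TFR2, A1BG and VTN were tested. VTN (vitronectin), an adhesion protein of plasma and matrix, rose by 0.39 ± 0.066 on the log2 scale (adjusted p = 0.000504, edgeR). AGT (angiotensinogen), the precursor of angiotensin, was at 989, 901 and 815 CPM in normoxia and at 1049, 951 and 921 CPM in hypoxia. These overlapped, and the log2 fold change of 0.11 ± 0.078 did not pass (adjusted p = 0.289, edgeR). TFR2, an iron sensor of hepatocytes, had 0.20 ± 0.11 and A1BG, a plasma glycoprotein, 0.14 ± 0.15. FGF21, a hormone of the fasted liver, had at most 4 counts in any HepG2 sample.

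Of the 17 calls, 12 were kept under every alternative fit, and those of APOE, APOH, A2M, AMBP and VTN were lost under at least 1. Leaving out normoxia replicate 3 raised the number of genes that fell from 5 to 8, with RBP4, APOC2 and SERPINA7 added.

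The sequence windows were compared with all 35116 windows of the same table, using 250 bases before each start and both strands. An entry was found for 31 of the 44 genes, with 42 windows. The C/EBP letters TTNCNNAA stood in 54.8% of these windows against 33.2% of all, the HNF4 letters CAAAGT in 23.8% against 10.3%, the HNF1 letters GTTAAT in 16.7% against 6.23% and the STAT letters TTCNNNGAA in 16.7% against 6.57%. The HIF core, ACGTG or GCGTG, stood in 28.6% of the windows against 43.2% of all. Counted per gene, with a match in any of its windows, 11 of the 31 genes with an entry held a HIF core. Of the 8 genes with an entry that rose in HepG2 cells, 4 held a HIF core, as did 0 of the 4 that fell. The share over all genes was taken per window only, so these counts per gene have no like background. For SERPINA1 and MTTP, both among these risers, another window of the same gene held no HIF core. These shares and counts are descriptions of short letter strings, and their link to the direction of change was not tested. TTR, APOA1, APOB, APOC3, A2M, GC, HP, ORM2, SAA1, SAA2, ITIH2, LCAT and TFR2 had no entry.

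Genes around these proteins were counted in the same HepG2 fit, where 39.1% of all genes tested passed (19.9% higher, 19.2% lower). Of the 20 listed and counted genes of lipoprotein secretion, uptake and remodelling, 18 were tested, 12 rose and 3 fell. ANGPTL4, an inhibitor of lipoprotein lipase, rose by 5.35 ± 0.15 on the log2 scale (adjusted p = 8.70e-12, edgeR), from 0.375 to 0.532 CPM to 17.2 to 19.4 CPM. APOL1, a high-density lipoprotein component, rose by 2.69 ± 0.073, the receptor VLDLR by 1.99 ± 0.11 and the transfer protein CETP by 1.41 ± 0.23. The adjusted p (edgeR) of these 3 ran from 6.94e-12 for APOL1 to 0.000342 for CETP.

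Of 17 liver transcription factors, all were tested, 5 rose and 7 fell (19.9% and 19.2% of all genes tested). ONECUT1 rose by 1.13 ± 0.21 and CEBPD, an inflammatory C/EBP factor, by 1.12 ± 0.12 on the log2 scale, each with an adjusted p of at most 0.00102 (edgeR). HNF4A had 0.095 ± 0.055 and did not pass (adjusted p = 0.197, edgeR), while CEBPA fell by 0.29 ± 0.061 (adjusted p = 0.00210, edgeR). Of 23 genes of interleukin-6 and interleukin-1 signalling, 19 were tested, 6 rose and 5 fell, beside the same shares of all genes. None reached a log2 fold change of 1. STAT3 fell by 0.20 ± 0.068 (adjusted p = 0.0351, edgeR), a call lost when any sample other than normoxia replicate 2 was left out, and its feedback inhibitor SOCS3, at 0.850 to 1.91 CPM, had -0.45 ± 0.25 without passing.

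Markers of other cell types were followed beside these changes. The summed level of 9 mesenchymal markers was 10806 to 13152 CPM of the total count in normoxic and 15234 to 17049 CPM in hypoxic HepG2 samples, with COL1A2 and DCN at 0 and 4 of the 9 at 10 or more counts in every sample. The same sum was 6246 to 8262 CPM in normoxic and 8345 to 10542 CPM in hypoxic HKC-8 samples. In RCC4 samples it was 2371 to 2439 CPM and 3129 to 3257 CPM. The sum was thus highest in the liver line and higher in hypoxia in every line. It cannot be read as an amount of mesenchymal cells. In HepG2 samples the summed level of 7 blood cell markers was 2398 to 2493 CPM in normoxia and 2586 to 2734 CPM in hypoxia, with PTPRC, CD3E and HBB at 0. Only LYZ, which made up nearly all of that sum and rose by 0.21 on the log2 scale, and CD14, which fell by 0.84, could be tested among the blood cell markers. Of the 4 mesenchymal genes that could be tested, 3 rose and 0 fell, beside 19.9% and 19.2% of all genes tested. PDGFRB was among the risers, by 1.42 on the log2 scale (adjusted p = 4.97e-09, edgeR). The part of these markers in the changes was not tested.

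Whether the kidney lines counted these genes was asked next, from the counts themselves. In HKC-8 cells 6 genes reached 10 counts in all 6 samples (APOC1, A1BG, ITIH4, VTN, LCAT and TFR2), 13 were at 0 in all 6, and 20 never exceeded 3 counts. In RCC4 cells 7 genes reached 10 counts in all samples (APOC1, SERPINA1, SERPINA6, SAA1, SAA2, AGT and LCAT), 21 were at 0 in all, and 28 never exceeded 3 counts. APOC1 and LCAT were thus the genes shared by the 3 lines at this level. ALB had 0 to 3 counts per HKC-8 sample and 0 in every RCC4 sample, APOB 1 to 5 and 0, and AFP 1 to 10 and 0 to 10.

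Taken as CPM of the whole library, normoxic ALB was at least 168971-fold higher in HepG2 than in RCC4 cells and APOA1 at least 24729-fold higher than in HKC-8 cells, where the kidney value of 0 was replaced by 3 counts per library. Over all genes at 0 in a normoxic kidney line whose HepG2 level allowed a bound, the lowest of these bounds was 34.9-fold for HKC-8 and 19.7-fold for RCC4, both for ITIH1. For genes with counts above 3 in every normoxic sample of both lines compared, the ratio of HepG2 to kidney spanned 5.02 (ITIH4) to 28308 (SERPINA1) over 9 genes for HKC-8, and 34.0 (LCAT) to 1605 (AMBP) over 7 genes for RCC4. APOC1 was at 130 ± 20.3 CPM in HepG2, 3.87 ± 0.72 CPM in HKC-8 and 0.75 ± 0.20 CPM in RCC4 (SD, n = 3). In 1 fit of the 9 normoxic samples 40 of the 44 genes were tested. Against HKC-8, 38 were higher in HepG2 and 0 lower, where 83% of all genes passed, 42.6% higher and 40.5% lower. Against RCC4, 38 were higher and 2 lower, where 83.3% of all genes passed, 45.3% higher and 38.1% lower. Most of them passed the low-count filter through HepG2 alone and had to differ, so these counts are a description. APOC1 and LCAT were the genes with at least 10 counts in all 9 samples, and both were higher in HepG2.

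SAA1 and SAA2 were the genes lower in HepG2 than in RCC4. SAA1 had 595, 595 and 467 counts in normoxic RCC4 samples and 0 in every HepG2 sample, so its level in CPM of the total count was at least 168-fold higher in RCC4. SAA2 had 64, 64 and 57 counts there against 1 count in 1 normoxic HepG2 sample. In HKC-8 cells SAA1 had 0 counts in the normoxic samples and 5, 4 and 6 counts in the hypoxic ones, and SAA2 at most 4.

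In HKC-8 cells 8 genes could be tested between hypoxia and normoxia. Without a replicate block 1 rose and 0 fell, where 20.4% of all genes tested passed (11.2% higher, 9.12% lower), and the calls with the block are given below. The riser was TFR2, at 2.76, 3.42 and 3.22 CPM in normoxia and at 5.04, 5.01 and 4.84 CPM in hypoxia. The hypoxic values were close together and above all normoxic ones, with a log2 fold change of 0.66 ± 0.15 (SE, adjusted p = 0.0152, edgeR). The call was lost without normoxia replicate 1 or hypoxia replicate 1, with adjusted p up to 0.0786.

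LCAT was at 3.34, 3.64 and 2.83 CPM in normoxic and at 5.02, 5.18 and 3.89 CPM in hypoxic HKC-8 samples. It was the other of 2 genes whose hypoxic samples all lay above the normoxic ones (20% of all genes tested did, and 19.1% lay below), but its log2 fold change of 0.52 ± 0.17 did not pass (adjusted p = 0.0626, edgeR). Same-numbered HKC-8 samples deviated together across genes, although normoxia replicate 1 did so nearly as much with hypoxia replicate 2. With the replicate as a block 3 genes rose, TFR2 by 0.67 (adjusted p = 0.00249), LCAT by 0.52 (adjusted p = 0.00727) and ITIH4 by 1.02 (adjusted p = 0.0489, all edgeR).

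VTN, the gene with the highest CPM of these in HKC-8 cells, was at 3.90, 4.99 and 7.13 CPM in normoxia and at 4.62, 6.09 and 7.88 CPM in hypoxia. APOC1 was at 3.23, 3.95 and 4.45 CPM and at 4.16, 4.99 and 3.76 CPM. In both genes the groups overlapped, with log2 fold changes of 0.21 ± 0.25 and 0.15 ± 0.18 that did not pass. VTN was higher in the hypoxic sample of each of the 3 pairs, and with the replicate as a block it had 0.22 ± 0.11 (adjusted p = 0.129, edgeR). The other tested genes, SERPINA1, APOE, ITIH4 and A1BG, were at 0.83 CPM or less in every sample and did not pass. FGF21, too thinly counted for the test, was at 0 in the 3 normoxic and at 6, 3 and 2 counts in the hypoxic HKC-8 samples.

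In RCC4 cells 9 genes were tested, of which 0 rose and 2 fell, where 50.1% of all genes tested passed (25.9% higher, 24.2% lower). AGT was at 10.9, 12.1 and 11.8 CPM in normoxia and at 5.62, 6.01 and 6.90 CPM in hypoxia. Every hypoxic sample was below every normoxic one, with a log2 fold change of -0.91 ± 0.098 (SE, adjusted p = 5.27e-08, edgeR). AGT shares 8.87% of its exon bases with COG2 on the opposite strand. AMBP fell by 1.71 ± 0.52 on the log2 scale (adjusted p = 0.00833, edgeR), but from only 38, 28 and 34 counts to 1, 8 and 22 counts, so the hypoxic samples differed widely among themselves.

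Neither serum amyloid gene of RCC4 cells passed. SAA1 was at 11.6, 11.7 and 10.8 CPM in normoxia and at 12.4, 12.3 and 12.5 CPM in hypoxia, all above the normoxic values but with a log2 fold change of only 0.12 ± 0.078 that did not pass (adjusted p = 0.199, edgeR). SAA2 was at 1.25, 1.26 and 1.32 CPM and at 1.55, 1.93 and 1.25 CPM, with overlapping groups and 0.31 ± 0.23. SERPINA1, at 10.3, 9.28 and 10.4 CPM and then 10.2, 8.32 and 8.98 CPM, also overlapped, with a log2 fold change of -0.12 ± 0.095. SERPINA6 was at 1.72, 1.55 and 2.16 CPM and at 1.47, 1.43 and 0.84 CPM, lower in every hypoxic sample, yet its -0.53 ± 0.24 did not pass (adjusted p = 0.0782, edgeR). Groups did not overlap for 1 gene upwards and 3 downwards, against 28.8% and 27.6% of all genes tested.

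**Figure D4:**
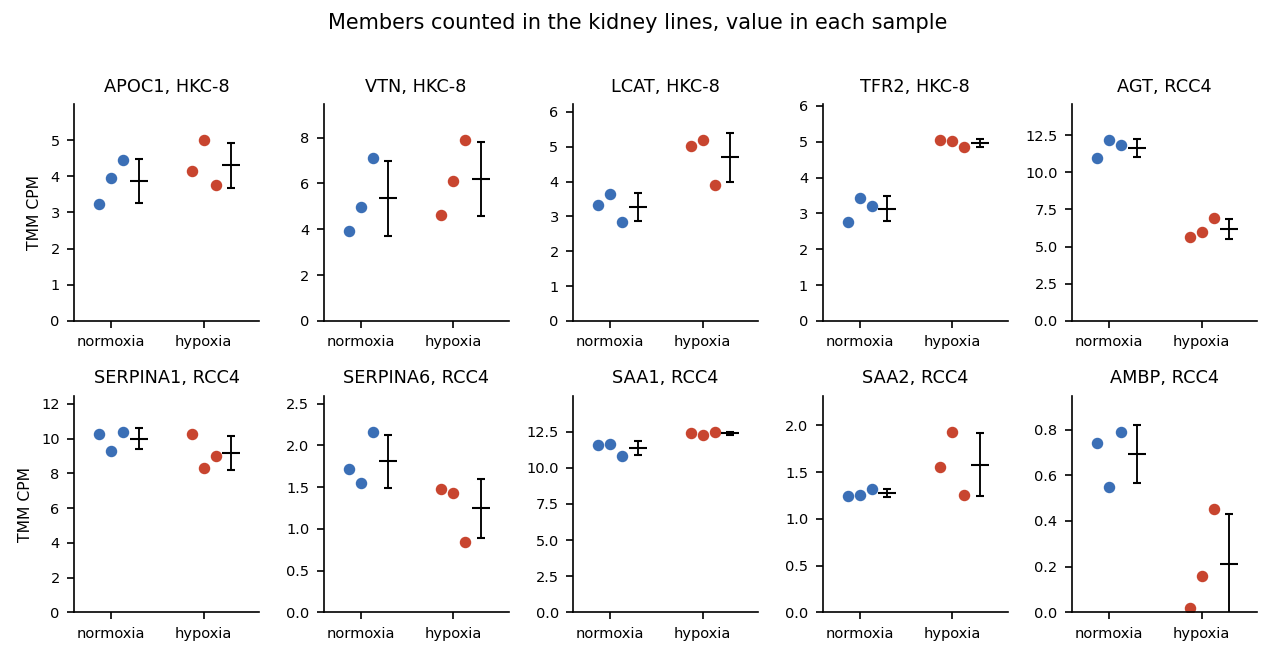
TMM-scaled CPM (y axes from 0) in each normoxic (blue) and hypoxic (red) sample of the genes with a mean of at least 1 CPM in a kidney line, and of AMBP in RCC4 cells; the black marks give mean ± SD, cut at 0 for AMBP. TFR2 in HKC-8 cells is higher and AGT in RCC4 cells lower in every hypoxic sample, and the 3 hypoxic AMBP values are spread from near 0 to 0.45 CPM.

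The response of HepG2 and HKC-8 cells, which share the labelled exposure, was compared through a line by oxygen term fitted to their 12 samples. Of the 38 genes tested, 0 passed in edgeR without a replicate block, where 9.3% of all genes tested did (5.02% higher, 4.28% lower). Among them 5 had an unadjusted p under 0.05, and DESeq2 called LCAT (adjusted p = 0.0318) and MTTP (adjusted p = 0.0145). Of the genes tested within both lines, LCAT had a difference of -0.53 in log2 fold change (HepG2 minus HKC-8; 2 SE either side, -0.88 to -0.17; adjusted p = 0.0786), ITIH4 -1.36 (-2.31 to -0.40; adjusted p = 0.0914) and TFR2 -0.46 (-0.82 to -0.10; adjusted p = 0.132, all edgeR). With the replicate as a block these 3 genes passed, with adjusted p of 0.0119, 0.0353 and 0.0255, as did MTTP at 0.0191, whose HKC-8 counts were 0 in 5 of 6 samples. For SERPINA1 the difference was -0.057 with 2 SE either side from -0.75 to 0.63, and for VTN it was 0.18 with -0.33 to 0.69. Most other members were too thinly counted in HKC-8 cells for the comparison to be informative at this depth.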

How the data were processed

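The deposited values were whole-number counts of reads per gene and sample, made by the authors: adapters were trimmed, reads were aligned to GRCh37 with TopHat and Bowtie, only uniquely placed fragments were retained, and reads were counted on UCSC genes with HTSeq in its intersection-strict mode (versions in the submitters' notes: Trim Galore 0.3.3, TopHat2 2.0.8b, Bowtie 1.0.0, SAMtools 0.1.19, HTSeq 0.5.4p3). The counts were not normalized. Dropping the other fragments lowers genes with near-identical copies.

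Counts were tested within each cell line with edgeR 4.0.16 (filterByExpr, TMM, glmQLFit, glmQLFTest) in R 4.3.3, with Benjamini-Hochberg adjustment over all genes tested and a threshold of 0.05. The standard error is the log2 fold change divided by the square root of F. The study's methods name DESeq2, which was an alternative (1.42.0). CPM were TMM-scaled within a line, and CPM of the total count were used between lines. RPKM used the canonical transcript of GENCODE 44 lifted to GRCh37. Comparisons were hypoxia against normoxia in each line, the interaction of HepG2 and HKC-8 (12 samples), and the 9 normoxic samples in 1 fit. Other alternatives were a replicate block, each sample left out, all 18 samples fitted at once, median-of-ratios factors, scaling without the 44 genes, and a low-count filter either dropped or set to 10 counts in each sample. The test scripts were tested on simulated data.

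The genes, their groups and the other lists were chosen with earlier results of these data known. Values in every sample are given for HepG2 genes that passed with a log2 fold change of 0.8 or more in size, for the gene with the highest RPKM in each group, and for genes with a mean of at least 1 CPM in a kidney line. Genes of other lists are named where they passed with a log2 fold change of 1 or more in size in HepG2 cells, with HNF4A, CEBPA, STAT3, SOCS3, PAX2 and PAX8 besides. Some genes that this rule takes are not reported here.

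The labels number the replicates alike in both conditions. In HKC-8 cells same-numbered samples deviated together from their group means across genes (r from 0.137 to 0.558). Normoxia replicate 1 correlated nearly as well with hypoxia replicate 2 (0.130) as with hypoxia replicate 1 (0.137). In HepG2 (0.0788 to 0.222) and RCC4 cells (-0.000511 to 0.0297) they shared only a number by the limit of 0.1 set for every pair.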

Additional observations from a re-analysis of the deposited data

Results flagged for a closer look

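AMBP, the precursor of bikunin and alpha-1-microglobulin, had log2 fold changes of opposite sign in HepG2 and RCC4 cells. Its log2 fold change between hypoxia and normoxia was 0.17 in HepG2 cells, with all 3 hypoxic samples above the normoxic ones, and -1.71 in RCC4 cells, with all 3 below. The difference between the lines was not tested, since their labels give different exposures. The RCC4 values rest on 1 to 38 counts per sample, and those of HepG2 cells on 1047 to 1306 CPM. The HepG2 call was marginal (adjusted p = 0.0484, edgeR) and was lost when any sample other than normoxia replicate 2 was left out. In HKC-8 cells AMBP was too thinly counted for the test, with 8, 8 and 9 counts in normoxia and 7, 5 and 5 in hypoxia.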

How the results depend on the processing

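In HepG2 cells the counts of genes that rose and fell (12 and 5) went to 9 and 4 in 1 fit of all 18 samples and to 15 and 6 with the replicate block, and leaving out 1 sample gave 9 to 13 and 5 to 8. The block added APOM, SERPINA3 and TFR2 to the genes that rose and SERPINA7 to those that fell (adjusted p from 0.0212 to 0.0387, edgeR). By the limit of 0.1 for every pair the HepG2 samples share only a number, since replicate 2 had r of 0.0788. Replicates 1 and 3 were above that limit, at 0.195 and 0.222, and each sample correlated best with its own number. In HKC-8 cells the 1 riser became 2 with DESeq2 (LCAT added), 2 without a filter (SAA1), 4 in 1 fit of all 18 samples (A2M, LCAT and SAA1) and 3 with the replicate block, and 0 to 2 when 1 sample was left out. In RCC4 cells the 0 risers became 1 without a filter and 1 in the fit of all 18 samples (AFP both times), and 0 to 1 with a sample left out (AHSG, without normoxia replicate 1), and the 2 that fell became 1 at 10 counts in every sample, which leaves AMBP untested. The interaction gave 1 higher and 1 lower with DESeq2, 1 higher and 3 lower with the replicate block, and 0 to 1 lower with a sample left out (ITIH4 or LCAT). In the normoxic fit, 10 counts in every sample left 2 higher and 0 lower, since 2 genes were then tested. The cause of the other shifts was not tested.

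Signs turned when 1 sample was left out, but no fit with a turned sign passed. In HepG2 cells the log2 fold changes then ran from -0.11 to 0.023 for ALB (0.0094 in another fit), -0.053 to 0.18 for APOC1, -0.18 to 0.082 for APOC2, -0.096 to 0.064 for ORM1, -0.13 to 0.028 for ORM2 and -0.081 to 0.047 for LCAT (0.015 and 0.0051 in other fits). The APOC2 value of -0.18, whose sign had not turned, did pass without normoxia replicate 3 (adjusted p = 0.0356, edgeR). Ranges of the other comparisons follow. The log2 fold changes ran from -0.054 to 0.95 for APOE in HKC-8 cells, from -0.21 to 0.50 for APOC1 and from -0.11 to 0.30 for LCAT (-0.025 in another fit) in RCC4 cells. In the interaction they ran from -0.24 to 0.020 for APOC1 (0.018 and 0.019 in other fits), -0.12 to 0.38 for VTN, -0.73 to 0.25 for APOE and -0.50 to 0.30 for SERPINA1 (0.30 in 2 fits). Low counts of these genes, and not a lower depth, limit the kidney lines, where 3 counts equal about 0.03 to 0.07 CPM. The blocked fit changed no call of the 2 genes that fell in RCC4 cells.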

Other observations

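Other hepatocyte genes outside the 44 changed in hypoxic HepG2 cells, with 7 of 18 tested markers higher and 6 lower (19.9% and 19.2% of all genes tested). ARG1, the urea cycle arginase, rose by 3.82 ± 0.40 on the log2 scale from 0.093 to 0.264 CPM to 1.54 to 3.76 CPM, and G6PC, which releases glucose, rose by 1.23 ± 0.32. FGG, a fibrinogen chain and acute phase protein, fell by 1.02 ± 0.13, from 703 to 962 CPM to 345 to 504 CPM, and the sulfotransferase SULT2A1 fell by 1.39 ± 0.10. Each had an adjusted p of at most 0.00838 (edgeR). The following genes were chosen after their values were seen. The other fibrinogen chains FGA and FGB fell by 0.30 ± 0.10 and 0.53 ± 0.13, with adjusted p of 0.0340 and 0.00481 (edgeR). TF (transferrin), the iron carrier of plasma, rose by 0.98 ± 0.065 (adjusted p = 7.45e-08, edgeR), from 1776 to 1885 CPM to 3428 to 3755 CPM.

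Close relatives of the 44 genes were also looked up after the values were seen. APOA5, which lies in the chromosome 11 apolipoprotein cluster and promotes lipolysis, rose by 1.16 ± 0.13 (adjusted p = 1.26e-05, edgeR), with 504 to 829 counts in normoxic and 1193 to 1605 counts in hypoxic HepG2 samples. HPR, the paralog of HP, fell by 0.73 ± 0.13 (adjusted p = 0.000519, edgeR), with counts that are uncertain for so near a copy. IL6 had 0 counts in every HepG2 sample. It rose in hypoxic RCC4 cells by 1.24 ± 0.095 on the log2 scale (adjusted p = 2.02e-10, edgeR), from 280 to 300 counts to 638 to 746 counts, and in hypoxic HKC-8 cells by 1.85 ± 0.37 (adjusted p = 0.0103, edgeR).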
